A study of Mus musculus with 11 samples.

Results

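Genes whose expression marks position along the small intestine were examined in the intestines of control and imiquimod (IMQ)-treated mice. The set comprised 7 of the 45777 genes in the deposited table, chosen by symbol for their known place along the gut, without a threshold on measured values. The choice was made with earlier results of these data known. The transcription factor genes *Gata4*, *Onecut2* and *Pdx1* and the iron reductase gene *Cybrd1* mark the proximal intestine, whereas *Fabp6*, *Slc10a2* and *Fgf15* mark the ileum. The annotation does not state which segment of the small intestine was sampled, and the question here was what these genes show about it in each library.

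The libraries were prepared from the skin and small intestine of BALB/c mice, female or male by the annotation, that were 8 to 10 weeks old at treatment. Control mice received Vaseline and IMQ-treated mice received 5% IMQ cream (Aldara), in each case 62.5 mg per day for 5 to 8 days, applied to shaved skin of the back and to the right ear. IMQ is a ligand of Toll-like receptor 7 that induces psoriasis-like dermatitis. Skin was represented by 6 libraries (3 per group) and small intestine by 5, of which 3 were control and 2 IMQ-treated. They are named here by the number in their label (control 7, 8 and 9, and IMQ 10 and 11, for the intestine). The annotation does not say that each library is a separate mouse, so the p-values below set group differences against the spread between these libraries.

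The intestinal epithelium keeps a regional identity that is set by transcription factors. GATA4 is present in the duodenum and jejunum and is lost in the distal ileum, where its absence permits the bile acid genes of the ileum to be expressed. PDX1 acts mainly in the duodenum, near the pancreas, and ONECUT2 acts in the proximal epithelium. The ileum recovers bile acids through the apical transporter SLC10A2 and the cytosolic carrier FABP6, and it secretes the hormone FGF15, which represses bile acid synthesis in the liver.

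The intestinal libraries held 48035631 to 58526384 counts in the control group and 48962832 to 56074304 in the IMQ group, and the skin libraries held 44995414 to 52492181. Levels are given as FPKM, fragments scaled by transcript length and library depth, which can be compared between genes. Fold changes come from the edgeR quasi-likelihood test on counts of all genes, with Benjamini-Hochberg adjustment. Epithelial genes were abundant in every intestinal library, with a summed level of 7 epithelial markers of 4559 to 5290 FPKM in the control group and 3832 to 4275 FPKM in the IMQ group.

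*Gata4* (Entrez 14463, chromosome 14, 63198914 to 63271712 in GRCm38.p6) was the most abundant member in all 5 intestinal libraries and the steadiest. Its level was 37.6, 36.5 and 34.4 FPKM in control 7, 8 and 9 and 31.9 and 37.5 FPKM in IMQ 10 and 11. The groups overlapped, and *Gata4* ranked above 95.4% to 96.0% of the genes in the table in each library. On the scale of log2 normalized counts its range over the control libraries was 0.15, and among the 15037 genes that averaged 50 normalized counts or more, 12.7% had a smaller range. No library therefore had the *Gata4* level near 0 that is known for the distal ileum, although no library labelled as ileum was measured beside them. A mixture of segments cannot be told apart from a single one by *Gata4* alone.

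*Onecut2* (Entrez 225631, chromosome 18, 64340032 to 64398488) varied far more than *Gata4*. It was measured at 4.0, 0.972 and 1.92 FPKM in control 7, 8 and 9 and at 5.25 and 6.64 FPKM in IMQ 10 and 11. Control 8 was the lowest and both IMQ libraries lay above every control library. The 3 control libraries alone spanned 2.14 on the log2 scale of normalized counts, a wider span than that of 98.9% of the same 15037 genes. The highest control library exceeded the lowest by 4.40-fold.

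*Pdx1* (Entrez 18609, chromosome 5, 147270097 to 147275848) was low throughout. The level was 0.609, 0.198 and 0.383 FPKM in control 7, 8 and 9 and 0.545 and 2.65 FPKM in IMQ 10 and 11, from 22 counts in control 8 to 299 counts in IMQ 11. IMQ 11 stood apart as the highest, control 8 was again the lowest, and IMQ 10 lay within the control range. The controls spanned 1.71 on the log2 scale, more than 98.0% of the genes considered. *Pdx1* overlaps a long noncoding RNA gene, *Plut*, in the annotation, and the handling of strand in the counting is not given in the sources used here, so its reads may be shared.

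*Cybrd1* (Entrez 73649, chromosome 2, 71118054 to 71142926) encodes a ferric reductase of the brush border that serves iron uptake in the duodenum. It did not follow *Onecut2* and *Pdx1*. Its level was 0.896, 1.5 and 1.17 FPKM in control 7, 8 and 9 and 1.02 and 0.684 FPKM in IMQ 10 and 11. Control 8, the lowest for both transcription factors, was the highest for *Cybrd1*, and IMQ 11, the highest for both, was the lowest. In this respect the proximal members did not move together.

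The distal members were scarce in every intestinal library. *Fabp6* (Entrez 16204, chromosome 11, 43596040 to 43601562) was at 1.57, 1.5 and 1.02 FPKM in control 7, 8 and 9, at 1.43 FPKM in IMQ 10 and at 0.229 FPKM in IMQ 11. IMQ 11 had only 7 counts (exact Poisson 95% interval 2.81 to 14.4, counting error only), whereas the other 4 libraries had 34 to 47. The related carrier *Fabp2*, which is expressed along the whole small intestine, was at 2023 to 11968 times the FPKM of *Fabp6*, depending on the library.

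*Slc10a2* (Entrez 20494, chromosome 8, 5083219 to 5105287) was at 0.278, 0.932 and 0.697 FPKM in control 7, 8 and 9 and at 0.359 and 0.318 FPKM in IMQ 10 and 11. Control 8 and 9 were high and the other 3 libraries were low, so control 7 sided with the IMQ group. The controls spanned 1.63 on the log2 scale of normalized counts, more than 97.6% of the genes considered. *Fgf15* (Entrez 14170, chromosome 7, 144896532 to 144900953) was detected in control 8, with 40 counts (28.6 to 54.5), and in control 7, with 7 counts. It had 0 counts in control 9, IMQ 10 and IMQ 11, where a count of 0, taken to allow up to 3 counts, allows up to 0.0513, 0.0535 and 0.0613 CPM (counts scaled to library depth, counting error only). Its level was 0.0616 and 0.406 FPKM in control 7 and 8, and the groups overlapped at 0. *Fgf15* lies over a long noncoding RNA gene, *Gm26793*, in the annotation.

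**Figure D1:**
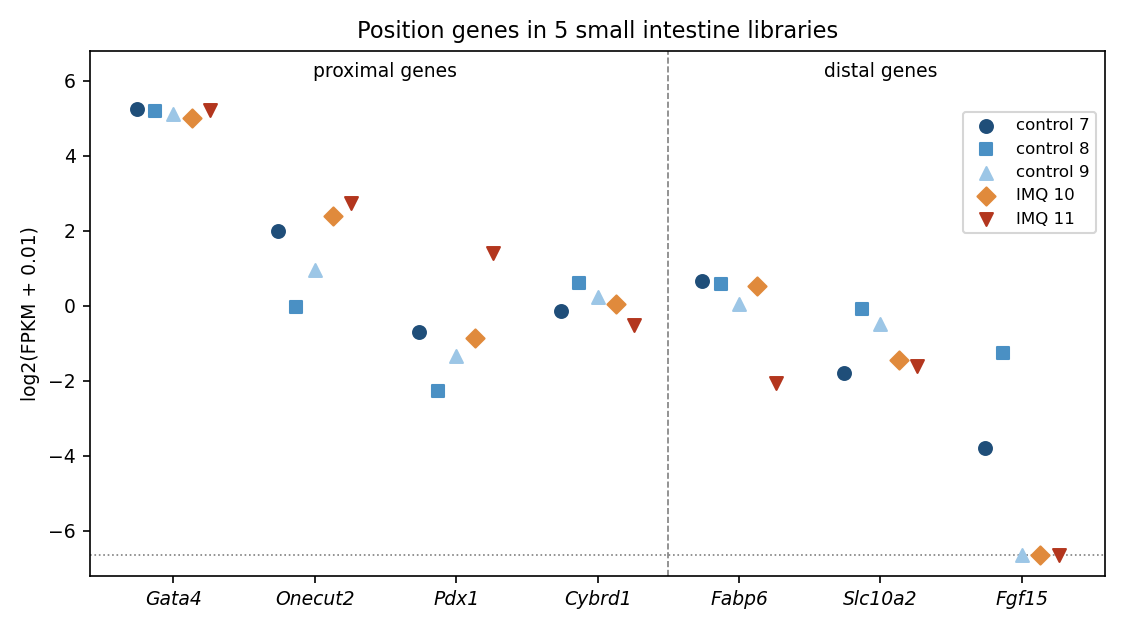
Level of the 7 position genes, as log2(FPKM + 0.01), in each of the 5 small intestine libraries, with proximal genes left and distal genes right of the dashed line and the dotted line marking a level of 0. *Gata4* is high and even at 31.9 to 37.6 FPKM, the other proximal genes vary between libraries, and *Fgf15* sits at 0 in control 9, IMQ 10 and IMQ 11.

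Set in order by the control mean, the levels were 36.2 ± 1.63 FPKM (SD, n = 3) for *Gata4*, 2.30 ± 1.55 for *Onecut2*, 1.36 ± 0.299 for *Fabp6*, 1.19 ± 0.303 for *Cybrd1*, 0.636 ± 0.331 for *Slc10a2*, 0.397 ± 0.206 for *Pdx1* and 0.156 ± 0.219 for *Fgf15*. Only *Gata4* stood apart from its neighbor by more than the spread, and the ranges of all other neighbors in this order overlapped. In the IMQ group *Gata4* was at 34.7 ± 3.96 FPKM (n = 2) and *Onecut2* at 5.95 ± 0.985, followed by *Pdx1* at 1.60 ± 1.49, *Cybrd1* at 0.850 ± 0.235, *Fabp6* at 0.831 ± 0.852 and *Slc10a2* at 0.339 ± 0.0285. The FPKM of *Gata4* was 19.7, 12.9 and 20.1 times the summed FPKM of the 3 distal members in control 7, 8 and 9, and 17.8 and 68.6 times in IMQ 10 and 11. This ratio was lowest in control 8 and highest in IMQ 11. Without *Gata4*, the summed FPKM of the other 3 proximal members exceeded that of the distal members in 4 libraries but not in control 8 (2.67 against 2.83 FPKM).

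GATA4 binds DNA at GATA motifs, and a pair of them near the start of the lactase gene *Lct* is a textbook target in the proximal intestine. The 250 bases before the RefSeq start were available for 4 of the 7 members and were searched on both strands for AGATAA and TGATAA, and for TTTATG, a motif of the CDX factors. *Lct* is shown as the reference with known GATA sites, *Slc10a2* as the only one of the 4 members with a match and *Fabp6* as a distal member without one. Sequences run 5′ to 3′ toward the gene, from RefSeq GRCm38.p6, and capitals mark the GATA matches. They lie on the minus strand at chr1:128328319-128328568 (*Lct*), chr8:5105288-5105537 (*Slc10a2*) and chr11:43601563-43601812 (*Fabp6*).
Lct: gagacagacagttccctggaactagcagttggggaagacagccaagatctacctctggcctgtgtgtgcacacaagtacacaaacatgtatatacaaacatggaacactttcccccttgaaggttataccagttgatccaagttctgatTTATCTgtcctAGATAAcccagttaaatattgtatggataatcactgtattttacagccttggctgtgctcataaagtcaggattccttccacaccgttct
Slc10a2: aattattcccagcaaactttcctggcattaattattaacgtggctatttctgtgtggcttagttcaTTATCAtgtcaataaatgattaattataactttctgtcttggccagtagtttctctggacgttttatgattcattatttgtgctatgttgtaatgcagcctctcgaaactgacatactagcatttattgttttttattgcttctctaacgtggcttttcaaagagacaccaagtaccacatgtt
Fabp6: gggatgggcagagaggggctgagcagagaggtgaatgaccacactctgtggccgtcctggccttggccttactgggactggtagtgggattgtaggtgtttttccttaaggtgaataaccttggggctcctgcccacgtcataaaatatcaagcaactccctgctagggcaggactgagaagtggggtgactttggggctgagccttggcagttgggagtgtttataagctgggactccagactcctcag

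*Lct* had AGATAA on the coding strand 90 to 85 bases before the start and on the opposite strand 101 to 96 bases before it, together with TTTATG on the opposite strand at 31 to 26 bases. *Slc10a2* had TGATAA on the opposite strand, 184 to 179 bases before the start, together with TTTATG at 122 to 117 bases. *Fabp6* had no GATA match and had TTTATG as well, at 111 to 106 bases on the opposite strand. Of 32851 promoters of this length, 16.6% held a GATA match (9.99% AGATAA and 7.94% TGATAA) and 10.8% held TTTATG. A match occurred in 6 of 15 other proximal genes and in 5 of 12 other distal genes, so these letters did not separate the lists. *Lct* itself was measured at 305, 259 and 186 FPKM in control 7, 8 and 9 and at 264 and 209 FPKM in IMQ 10 and 11, which overlapped.

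A proximal minus distal index was computed for each intestinal library as the mean log2(FPKM + 0.01) of *Gata4*, *Onecut2*, *Pdx1* and *Cybrd1* minus that of *Fabp6*, *Slc10a2* and *Fgf15*. It was 3.25, 1.13 and 3.60 in control 7, 8 and 9 and 4.16 and 5.65 in IMQ 10 and 11. Control 8 was therefore the most distal in balance and IMQ 11 the most proximal. The mean was 2.66 ± 1.34 (SD, n = 3) in the control group and 4.91 ± 1.05 (n = 2) in the IMQ group, and both IMQ values lay above all control values. No p is given for a score over chosen genes. The places of control 9 and IMQ 10 rest on the 0 counts of *Fgf15*. The lead of IMQ 11 over IMQ 10 came mostly from *Fabp6* (0.229 against 1.43 FPKM) and *Pdx1* (2.65 against 0.545 FPKM), both of low level. *Cybrd1* went the other way (0.684 against 1.02 FPKM). Without *Fgf15*, a version added after the data had been seen, the index was 2.17, 0.62 and 1.46 in control 7, 8 and 9 and 2.1 and 4.05 in IMQ 10 and 11, so that IMQ 10 fell below control 7 and the groups overlapped. With all members and a pseudocount of 1, control 9 lay at 1.48 and control 7 at 1.70, and IMQ 10 was above control 7 by a small margin at 1.76.

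The same index over 16 other proximal and 12 other distal genes gave 2.84, 0.80 and 1.72 in control 7, 8 and 9 and 3.31 and 4.33 in IMQ 10 and 11. Control 8 was again the lowest and IMQ 11 the highest, with the IMQ libraries above the controls. These lists were chosen with earlier results of these data known, so this index is not independent of the first. Since the proximal balance was on average higher in the IMQ group, with control 7 close to IMQ 10, a difference in the stretch of intestine sampled and an effect of IMQ on position genes cannot be told apart in this design. In these bulk samples, fewer cells of a type and less RNA per cell cannot be told apart either.

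**Figure D2:**
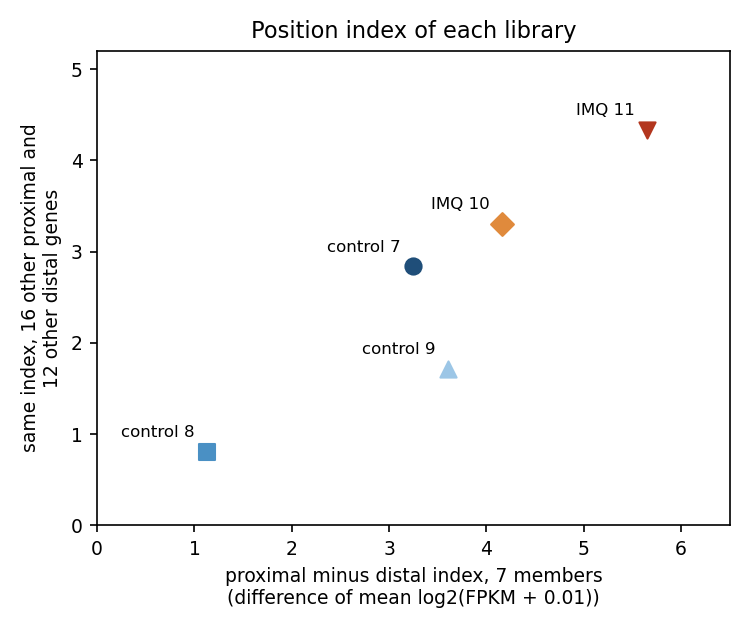
Proximal minus distal index of each small intestine library over the 7 members (x axis) and over 16 other proximal and 12 other distal genes (y axis), both as differences of mean log2(FPKM + 0.01). Control 8 has the lowest index on both axes (1.13 and 0.80), IMQ 11 the highest (5.65 and 4.33), and control 9 lies above control 7 only on the x axis.

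When IMQ and control intestine were compared gene by gene, none of the 6 members that could be tested was called. Over all 19965 genes tested, 2.95% were called at an adjusted p under 0.05, 2.77% higher and 0.170% lower in the IMQ group. *Fgf15* was left out of this comparison because it had 0 counts in 3 libraries. With no filter on low counts its log2 fold change was -7.0 (SE 2.69, edgeR adjusted p = 0.422), and it was not called. Without adjustment, 2 of the 6 members, *Onecut2* and *Pdx1*, had p under 0.05, as did 12.3% of all genes tested. Among the other tools, DESeq2 called 1 member (*Pdx1*, adjusted p = 0.0449) and 6.04% of all genes, while limma-voom and limma on FPKM called none. The IMQ and control libraries did not overlap for 1 of the 6 members, *Onecut2*, whereas they did not overlap for 29.0% of all genes tested.

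The log2 fold change of *Onecut2* was 1.40 (SE 0.51, edgeR adjusted p = 0.302), from normalized counts of 3031, 689 and 1527 in the controls and 3939 and 5267 in the IMQ libraries. It depended on control 7: without that library the value was 2.06 and was called (adjusted p = 0.0252). *Pdx1* had a log2 fold change of 2.06 (SE 0.71, adjusted p = 0.267), which rested on IMQ 11, since without this library the value was 0.43. *Gata4* differed by -0.01 (SE 0.15, adjusted p = 0.994), with a sign that depended on the library left out and on scaling. For *Cybrd1* the value was -0.44 (SE 0.27, adjusted p = 0.608) and for *Slc10a2* -0.85 (SE 0.47, adjusted p = 0.566). *Fabp6* had a value of -0.65 (SE 0.62, adjusted p = 0.780) that also rested on IMQ 11 and became 0.077 without it.

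Markers of cell types also differed between the libraries, but only the myeloid list held genes called by edgeR. Of 5 myeloid markers, 4 were called higher in the IMQ intestine (*Cd68*, *Itgam*, *Ptprc* and *Tyrobp*, with log2 fold changes of 2.54, 1.88, 1.71 and 2.0), against 2.77% of all genes. The summed level of the list was 61.8 to 88.5 FPKM in the controls and 219 to 241 FPKM in the IMQ libraries. None of 7 epithelial markers was called (0 at an unadjusted p under 0.05, and 0 by DESeq2), while their summed level was lower in both IMQ libraries, as given above. Scaled to the epithelial genes, *Onecut2* (1.57, edgeR adjusted p = 0.0235) and *Pdx1* (2.18, adjusted p = 0.0406) were both called. On this scale 938 of 19965 genes were called, and the median log2 fold change of all genes was 0.19. All 6 smooth muscle markers were lowest in IMQ 11, and none was called. Their summed level was 155 FPKM in IMQ 11 and 514 FPKM in IMQ 10, with 305 to 480 FPKM in the controls. B cell follicle markers summed to 2.07 to 7.46 FPKM in the controls and 0.810 to 1.57 FPKM in the IMQ libraries, and all 5 were highest in control 9. None was called by edgeR, and DESeq2 called 1 (*Cd22*). Their median log2 fold change was -1.63 with all libraries and 0.011 without control 9. The part of these differences in the values of the position genes was not tested.

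Most other genes of proximal identity were high and low in the same libraries as *Onecut2*. Of 16 genes, all tested, 13 had a log2 fold change above 0, and the median was 0.75 against -0.02 for all genes tested. None was called by edgeR, and 6 had an unadjusted p under 0.05, against 12.3% of all genes tested. DESeq2 called 3 (*Creb3l3*, *Fabp1* and *Ms4a10*), against 6.04% of all genes. Both IMQ libraries lay above every control for 9 genes and below every control for 1, against 15.1% and 13.9% of all genes tested. Control 8 was the lowest library for 13 of the 16 genes and IMQ 11 the highest for 11. The share of all genes with such extremes in these libraries was not computed. Control 8 was also lowest for 4 of 5 myeloid markers, and IMQ 11 was lowest for 4 of 5 B cell follicle markers. IMQ 10 was lowest for 6 of 7 epithelial markers. *Apoa4*, an apolipoprotein of chylomicrons, was at 3654, 1078 and 2574 FPKM in control 7, 8 and 9 and at 6630 and 10231 FPKM in IMQ 10 and 11 (log2 fold change 1.83, SE 0.58, adjusted p = 0.222). *Fabp1*, a fatty acid carrier of the proximal intestine and the liver, was at 3809, 1282 and 2196 FPKM and at 5207 and 6546 FPKM (1.31, SE 0.46, adjusted p = 0.276). The ratio of *Fabp1* to *Fabp2* was 1.20, 0.345 and 0.342 in the controls and 1.15 and 2.39 in the IMQ libraries, and the groups overlapped.

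Most other genes of distal identity ran the opposite way. Of 12 genes, 11 had a log2 fold change below 0 and the median was -0.86. None was called by edgeR, and 7 had an unadjusted p under 0.05, against 12.3% of all genes tested. DESeq2 called 5 (*Dpep1*, *Fam151a*, *Mep1a*, *Pyy* and *Xpnpep2*), against 6.04% of all genes. Both IMQ libraries lay below every control for 7 of the 12 genes, against 13.9% of all genes tested. Control 8 was the highest library for 7 genes and IMQ 11 the lowest for 8. *Clec2h*, a lectin-like receptor gene, was at 257, 622 and 445 FPKM in control 7, 8 and 9 and at 259 and 249 FPKM in IMQ 10 and 11 (-0.74, SE 0.34, adjusted p = 0.446), which is the pattern of *Slc10a2*. *Dpep1*, a brush border dipeptidase, was at 92.5, 118 and 141 FPKM and at 76.8 and 64.0 FPKM, without overlap (-0.69, SE 0.21, adjusted p = 0.190). *Fam151a*, named after its values were seen, had the widest span, with 2.35, 33.6 and 16.6 FPKM in the controls and 1.02 and 0.254 FPKM in the IMQ libraries (-4.71, SE 1.14, adjusted p = 0.0980).

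**Figure D3:**
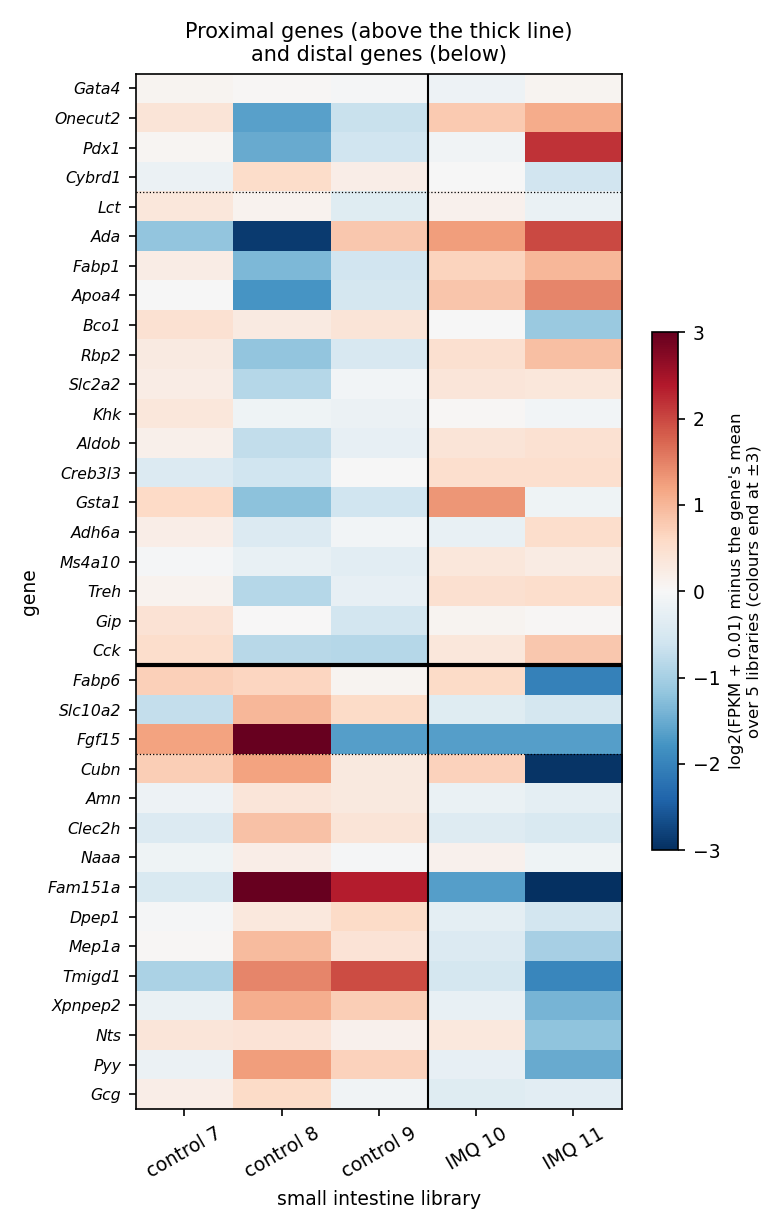
Level of the proximal genes (above the thick line) and distal genes (below it) in each small intestine library, as log2(FPKM + 0.01) minus the mean of the gene over 5 libraries, with the 7 members set off by dotted lines. Control 8 is the lowest library for 13 of 16 other proximal genes and the highest for 7 of 12 other distal genes, and IMQ 11 shows the reverse for 11 and 8 genes. The share of all genes with such extremes was not computed.

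**Figure D4:**
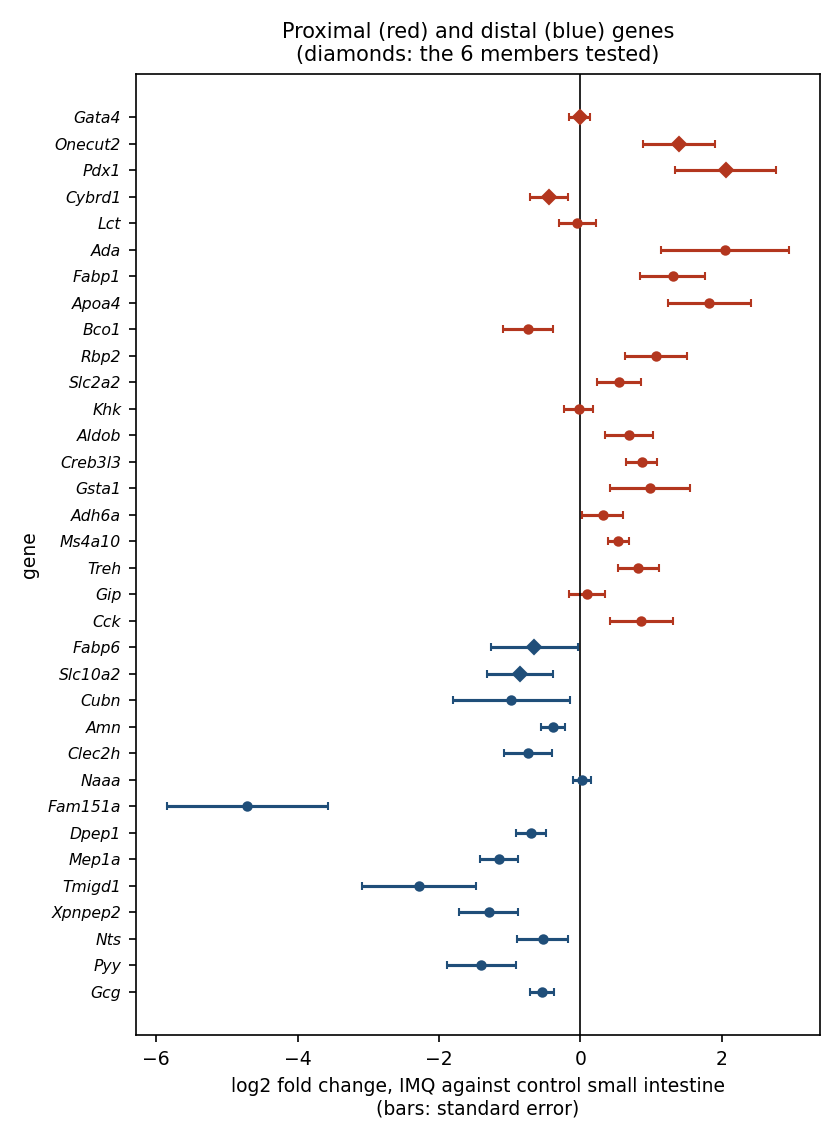
Log2 fold change with its standard error for IMQ against control small intestine, for the 6 tested members (diamonds), 16 other proximal genes (red circles) and 12 other distal genes (blue circles). Proximal genes lie mostly right of 0 (13 of 16 other genes) and distal genes mostly left of it (11 of 12), with *Gata4* at -0.01 and *Cybrd1* at -0.44, and none was called.

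The genes whose pattern over the 5 intestinal libraries was most like that of each variable member were found by the root mean square difference of log2 normalized counts, each gene centered on its own mean. For *Onecut2* these were *Bbox1* (0.0955), *Fabp1* (0.171) and *Slc13a1* (0.172) among 15036 genes. *Slc10a2* was followed most closely by *Aspg* (0.0821), *Il7* (0.143) and *Slc26a2* (0.157). The nearest genes of *Fabp6*, *Tcf23* (0.137), *Prima1* (0.284) and *Hoxb5* (0.304), shared its low value in IMQ 11. *Pdx1* had no close neighbor, with *Ccl4* at 0.414, *Igkv9-123* at 0.418 and *Papss2* at 0.441. With 5 libraries, the measure describes these libraries only.

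Genes that act beside the members in bile acid and iron handling were examined as well. Of 8 bile acid genes, 7 were tested, 4 with a log2 fold change above 0 and 3 below, with a median of 0.16. None was called by edgeR or DESeq2, and 1 had an unadjusted p under 0.05, against 12.3% of all genes tested. *Slc51a* and *Slc51b*, the 2 subunits of the transporter that exports bile acids from enterocytes, were at 105, 121 and 122 FPKM and 78.5, 80.3 and 142 FPKM in control 7, 8 and 9, and at 73.1 and 92.9 FPKM and 68.0 and 77.5 FPKM in IMQ 10 and 11. Both exporter subunits were thus well expressed where the importer *Slc10a2* stayed below 1 FPKM. *Nr1h4*, which encodes the bile acid receptor that induces *Fgf15*, was at 15.0 to 23.9 FPKM in the 5 libraries, including the 3 in which *Fgf15* had 0 counts. Of 8 iron genes, 7 had a value above 0 (median 0.36) and none was called by edgeR. An unadjusted p under 0.05 was found for 3, against 12.3% of all genes tested. DESeq2 called *Ftl1*, against 6.04% of all genes. The ferritin genes *Fth1* and *Ftl1* had log2 fold changes of 0.70 (SE 0.37, adjusted p = 0.534) and 0.85 (SE 0.21, adjusted p = 0.110), whereas *Cybrd1* was below 0.

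Of 13 other intestinal transcription factor genes, 12 were tested, 9 had a log2 fold change below 0 and the median was -0.16. None was called by edgeR, and 3 had an unadjusted p under 0.05, against 12.3% of all genes tested. DESeq2 called 1, against 6.04% of all genes. *Hnf4a* and *Hnf4g*, general regulators of enterocyte genes, were at 127 to 182 FPKM and 87.2 to 156 FPKM. *Gata6* and *Gata5*, the relatives of *Gata4* in the epithelium, were at 14.0 to 25.9 FPKM and 19.9 to 23.9 FPKM. *Gata4* exceeded *Gata6* by 2.03, 2.38 and 2.45 times in the controls and by 1.62 and 1.45 times in the IMQ libraries.

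Markers of the stomach and pancreas were near 0. The summed level of 7 stomach markers was 0.229 to 0.531 FPKM, with 3 of them at 0 counts in all 5 intestinal libraries. *Muc6* and *Tff2*, which mark the mucous glands of the stomach and the first part of the duodenum, summed to 0 to 0.00406 FPKM in the controls and 0.0624 to 0.0964 FPKM in the IMQ libraries. The summed level of 6 pancreatic markers was 0.101 to 0.327 FPKM, and IMQ 11, in which *Pdx1* was highest, had the 0.101. Of 5 colon markers, *Car1*, *Hoxb13* and *Insl5* were at 0 counts in all 5 libraries. The other two, *Mettl7b* and *Aqp8*, were present, at 10.5 to 22.9 FPKM and 0.206 to 23.5 FPKM, with *Aqp8* highest in control 7 and IMQ 11.

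In skin (libraries 1 to 3 control and 4 to 6 IMQ-treated), *Pdx1*, *Slc10a2* and *Fgf15* had 0 counts in all 6 libraries. *Gata4* had 45 counts in skin control 2 and 0 in the other 5, and *Onecut2* had 7 counts in control 2 and 0 to 3 in the others. These were 0.712% and 0.458% of the mean CPM in control small intestine. Skin control 2 stood apart for other intestinal transcripts too. The 20 listed genes with 0 counts in skin control 1 and 3 and a mean of at least 1000 counts in control intestine were all detected in it, at 0.663% to 2.35% of their mean CPM in control intestine (median 0.863%), among them *Fabp2* with 4617 counts (2.11%), *Apoa4* with 3465 and *Fabp1* with 913. Shares in this range would correspond to 2.11 to 7.47 of the 359 counts of *Cybrd1* and 0.239 to 0.849 of the 48 counts of *Fabp6* in this library. The range describes the genes chosen by this rule only, and *Onecut2* lay below it at 0.458%. The source of the intestinal transcripts in skin control 2 was not tested.

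*Cybrd1* and *Fabp6* were the 2 members that could be tested in skin. *Cybrd1* was at 2.13, 1.34 and 3.34 FPKM in the controls and at 0.644, 0.596 and 0.867 FPKM after IMQ, without overlap. The share of all genes without overlap in skin was not computed. *Cybrd1* was called lower (log2 fold change -1.63, SE 0.33, edgeR adjusted p = 0.0350), where 2.69% of 20512 genes were called lower and 6.74% in either direction. This call was lost when any one library other than control 2 was left out (log2 fold changes of -1.87 to -1.28 over the 6 libraries left out), and in both fits of FPKM. *Fabp6* was at 0.693, 1.81 and 0.652 FPKM in control skin and 1.37, 1.78 and 1.47 FPKM in IMQ skin, levels that overlapped those of the small intestine (0.58, SE 0.46, adjusted p = 0.50). Skin control 2 was the high control library, and without it the value was 1.26 and was called (adjusted p = 0.0355).

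The change of *Cybrd1* was compared between the tissues with an interaction term, which was added after the data had been seen. The difference of log2 fold changes, small intestine minus skin, was 1.18 (SE 0.44, edgeR adjusted p = 0.195) for *Cybrd1* and -1.22 (adjusted p = 0.503) for *Fabp6*, and neither was called, against 2.55% of 18108 genes. A different response of *Cybrd1* in the tissues was therefore not shown.

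**Figure D5:**
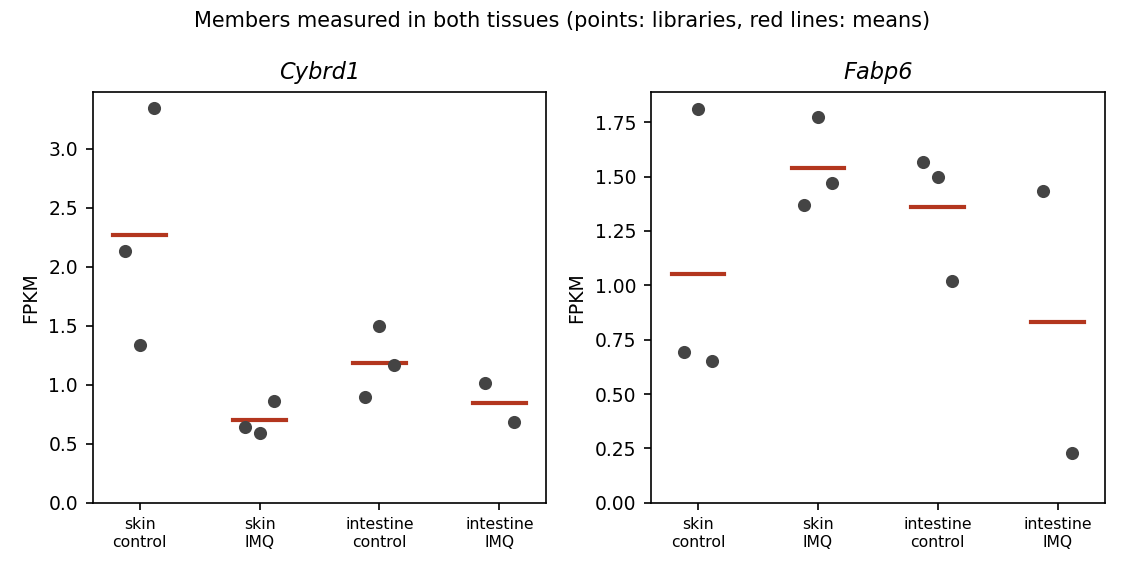
FPKM of *Cybrd1* (left) and *Fabp6* (right), the members with counts in every library of both tissues, in the 4 groups, with a point per library and a red line at the group mean. *Cybrd1* is lower in IMQ skin (0.596 to 0.867 FPKM) than in control skin (1.34 to 3.34 FPKM), and *Fabp6* spans like levels in skin and intestine, with IMQ 11 lowest at 0.229 FPKM.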

How the data were processed

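RNA of skin and small intestine was sequenced by the authors from TruSeq stranded mRNA libraries. Per the submitters' processing notes, the tools were bcl2fastq 2.20.0, Trimmomatic, HISAT2 2.1.0 and StringTie 2.1.3b with genome build mm10. The deposited table gives whole-number read counts, which the authors did not normalize, together with FPKM and TPM computed by the authors. TPM was not tested. How counts were derived from StringTie and how strand was handled is not given in the sources used here, so overlapping genes are uncertain.

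Samples were grouped by tissue and treatment from the annotation, and all 11 libraries had their own columns. Genes counted at least 1 time in every library of a tissue were normalized by relative log expression and compared with edgeR 4.0.16 (R 4.3.3, quasi-likelihood test, Benjamini-Hochberg, threshold 0.05). Standard errors are the log2 fold change divided by the square root of F. The index used log2(FPKM + 0.01). Depth was at least 44995414 counts per library, and the biological coefficient of variation was 0.215 in small intestine and 0.245 in skin. The procedure was tested on simulated data.

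The members and the 16 lists were chosen with earlier results of these data known. Named genes were all members and, of each other list, up to 4 called genes and the 2 of highest mean FPKM. For members with an SD of log2 normalized counts of at least 0.5, the 3 most similar genes with a mean of at least 50 normalized counts were also named. Other genes were named after their values were seen, and some genes are not reported here. Gene symbols were matched by Entrez identifier to RefSeq (GRCm38.p6) for 45679 of 45777 genes. The settings varied were normalization (TMM, upper quartile), the tool (DESeq2 1.42.0, limma-voom and limma 3.58.1 on log2 FPKM with a pseudocount of 0.01 or 1), the filter, a joint fit of 11 libraries, scaling to epithelial genes and each library left out.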

Additional observations from a re-analysis of the deposited data

How the results depend on the processing

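No member was called in the small intestine, except that DESeq2 called 1, scaling to the epithelial genes called 2 and leaving out control 7 called 1 (0 to 1 over the libraries left out in turn). Over all genes, the 588 called in the small intestine became 1206 with DESeq2, 938 with epithelial scaling and 294 to 801 with a library left out. In skin, the 1382 called became 3030 with DESeq2, 894 with limma on log2(FPKM + 1) and 258 to 2521 with a library left out, and the 1 member called became 0 with limma on FPKM at either pseudocount (0 with 0.01 and 0 with 1), and 0 to 2 with a library left out, the 2 without skin control 2. *Gata4* turned positive without control 7 (0.03), without IMQ 10 (0.16) and with epithelial scaling (0.18), and spanned -0.19 to 0.16 with a library left out. *Fabp6* turned positive in the small intestine without IMQ 11 and spanned -2.36 to 0.077 with a library left out. The cause was not tested. *Onecut2* and *Pdx1* stayed above 0 and *Slc10a2* and *Cybrd1* below 0 in the small intestine under all 15 alternatives, with adjusted p of 0.0235 to 0.777 for *Onecut2* and 0.0406 to 0.937 for *Pdx1*. The proximal minus distal index of control 7, control 9, IMQ 10 and IMQ 11 moved to 1.70, 1.48, 1.76 and 2.47 with a pseudocount of 1. With CPM it was 4.79, 2.69 and 5.52 in control 7, 8 and 9 and 6.08 and 7.53 in IMQ 10 and 11, and with the other lists it moved to 1.72 in control 9. Without *Fgf15*, added after the data were seen, it moved to 1.46 in control 9, 2.1 in IMQ 10 and 4.05 in IMQ 11. Both IMQ libraries were above the 3 controls in 4 of the 5 versions of the index, the exception being that without *Fgf15*, where IMQ 10 lay below control 7 (2.17). No paired analysis was possible because the library numbers are not shared between groups. Depth limits *Fgf15* and *Fabp6*, with 0 to 40 and 7 to 47 counts, and 2 IMQ libraries limit all intestinal tests.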

Other observations

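*Slc46a1*, a gene of the iron list that encodes the proton-coupled folate transporter of the proximal intestine, was named after its values were seen. It was at 40.1, 7.56 and 10.6 FPKM in control 7, 8 and 9 and at 60.4 and 81.1 FPKM in IMQ 10 and 11 (log2 fold change 1.90, SE 0.66, edgeR adjusted p = 0.266). It had the library order of *Onecut2*, with control 8 lowest and IMQ 11 highest. *Nr0b2*, the gene of the bile acid list left out by the filter and a repressor induced by the bile acid receptor as *Fgf15* is, was also named after its values were seen. It was listed at 1.82, 0 and 0.0841 FPKM in control 7, 8 and 9 and at 1.69 and 2.67 FPKM in IMQ 10 and 11. It was thus lowest in control 8, where *Fgf15* was highest, and was left out of the main comparison because of the 0 count. With no filter on low counts, 0 of the 8 bile acid genes were called. *Cubn*, the ileal receptor for vitamin B12 bound to intrinsic factor, was at 19.3 to 36.5 FPKM in the control libraries and IMQ 10 and at 2.06 FPKM in IMQ 11, the library that also had the lowest *Fabp6* (-0.98, SE 0.82, adjusted p = 0.742).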
